A study of Mus musculus with 4 samples.

Results

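The genes described here are mouse zinc finger protein genes whose symbol is Zfp followed by a digit. A zinc finger is a small protein fold held by a zinc ion that lets a protein grip DNA, RNA or another protein. Most genes with this name encode proteins with rows of C2H2 fingers. Many of these also carry a KRAB domain, which recruits the corepressor Trim28 and with it histone methylation, and they are known in embryonic stem cells for silencing retroelements and keeping imprinted regions methylated. Others with the name bind RNA, act in translation quality control or regulate transcription. The symbol says nothing about the number or kind of fingers.

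The mRNA table held 331 such symbols, leaving out Zfp42, Zfp488 and Zfp781, among 16469 symbols in all. Members were chosen by read numbers: a gene was kept with at least 50 reads summed over the 2 immunoprecipitation (IP) libraries, which left 163 and set 168 aside. Counts and medians below describe genes deep enough to be counted. The minimum applied to the sum, so a gene seen in 1 IP alone could pass through that IP, and 25 members had fewer than 25 mock IP reads and 8 fewer than 25 mutant IP reads. Just inside it lay Zfp658, with 27 reads in the mutant IP against 23 in the mock IP, and Zfp639, with 29 and 22. Just outside lay 5 genes with 48 reads, among them Zfp260, with 32 and 16, and Zfp345, with 41 and 7.

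The series looked for RNAs bound by mutant Dis3l2, a 3′ to 5′ exoribonuclease that prefers RNA with uridine tails. All 4 libraries came from C57BL/6 mouse embryonic stem cells (passages 25 to 30) kept feeder-free on gelatin in medium with LIF and serum. They were an IP from cells transfected with FLAG- mutant Dis3l2, an IP from mock transfected cells, and an input from each, hereafter mutant IP, mock IP, mutant input and mock input. Both IPs used anti-FLAG M2 affinity gel, so the mock IP holds what the gel retained without the tagged protein. Inputs were selected against ribosomal RNA, and no such selection is given for the IPs. The mutation is not named in the labels. The cells are called transfected, with no word on selection of clones.

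Each group is 1 library, so there is no replicate check, no test and no p-value. The mRNA table held 2275647 reads in the mutant IP, 1860030 in the mock IP, 307324 in the mutant input and 291175 in the mock input, and 33.3% to 58.6% of them lay on 1 gene, Lars2. All 10 embryonic stem cell markers were read in both IPs, with 3493 reads in the mutant IP against 2421 in the mock IP. The 5 listed fibroblast markers of 6 had 200 and 103 reads in the same order, with Col1a2 at 0 in the mutant IP. The 4 listed endoderm markers of 6 had 20 and 26, with Afp, Dab2 and Gata6 at 0 in the mutant IP and Dab2 and Gata4 at 0 in the mock IP. The stem cell markers had 124 reads in the mutant input against 152 in the mock input, with Esrrb at 0 and 17. Divided by the factors given below, the 2 sums were 68.9 and 60.8. The fibroblast markers had 19 and 13 input reads and the endoderm markers 2 and 0. The part of these markers in the results below was not tested. Deposited values are whole reads divided by 2.7 in the mutant IP, 2.5 in the mock IP, 1.8 in the mutant input and 2.5 in the mock input, and they are not divided by transcript length. Levels are therefore not compared between genes. Folds are ratios of these values, with exact binomial 95% intervals that cover counting error only. Counts of genes past 4-fold and medians use log2 ratios with a pseudocount of 1.

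As a group the Zfp genes drew close to the same share of reads in every library. They held 17607 mutant IP reads, 13021 mock IP reads, 3305 mutant input reads and 3229 mock input reads. Without Lars2, that was 1.61% of the mutant IP (exact 95% interval 1.59 to 1.63) and 1.69% of the mock IP (1.66 to 1.72). It was 1.61% of the mutant input (1.56 to 1.67) and 1.70% of the mock input (1.64 to 1.76). The mutant share was the lower by a like amount in the IPs and in the inputs. The 2 input intervals overlapped and the 2 IP intervals did not, but the inputs hold fewer reads and their intervals are wider. Overlap therefore does not set the IPs apart from the inputs. Within each condition IP and input shares were nearly equal. Summed over the members, the mutant IP stood at 1.25 times the mock IP (1.22 to 1.28), while all symbols without Lars2 stood at 1.31 times. The mutant input stood at 1.42 times the mock input (1.35 to 1.49), against 1.5 for all symbols without Lars2. Both intervals lay below the value of all symbols, by counting error only. Single genes were shallow in the inputs. The median over members was 65 reads in the mutant IP, 45 in the mock IP, 3 in the mutant input and 4 in the mock input, and 35 members had no read in either input.

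Mutant IP against mock IP asks which RNAs were recovered with the tagged protein. Of the 163 Zfp genes, 7 were at least 4-fold higher in the mutant IP and 1 was at least 4-fold lower. Among all 7236 symbols with at least 50 IP reads the shares were 3.45% higher and 0.594% lower, against 4.29% and 0.613% of the Zfp genes. The median log2 ratio was 0.28 for the Zfp genes, with a range from -2.55 to 4.65, and 0.39 for all symbols, and 70.6% of the Zfp genes and 72.0% of all symbols were above 0. These shares lay near the background. After centring each ratio on all symbols the Zfp median was -0.11, and with equal totals without Lars2 it was -0.091, so the sign of the group's median followed the scaling.

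The 7 genes past 4-fold rested on few mock reads. Zfp748 had 65 reads in the mutant IP against 0 in the mock IP, at least 20.1-fold higher against a floor of 3 reads. Zfp948 had 60 reads in the mutant IP against 3 in the mock IP (ratio 18.5, 6.04 to 92.3). Both genes had 0 reads in both inputs, where a count of 0 allows up to 3 reads, so their level in the cells was not measurable at this depth. Zfp266 had 68 reads in the mutant IP against 7 in the mock IP (ratio 8.99, 4.14 to 23.2). Zfp951 had 72 and 12 reads in the same order, a ratio of 5.56 (2.99 to 11.2). No clear role is given here for these 4 genes.

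The other 3 of the 7 include products that are not typical DNA-binding finger arrays. Zfp185, an actin-associated LIM domain protein, had 96 reads in the mutant IP against 13 in the mock IP (ratio 6.84, 3.81 to 13.3). Zfp259, listed as Zpr1 in RefSeq and known to bind translation elongation factor eEF1A, had 98 and 17 reads, a ratio of 5.34 (3.17 to 9.53). Zfp46 had 48 and 7 reads, a ratio of 6.35 (2.86 to 16.6). None of the 7 had more than 1 read in the mutant input or 5 in the mock input. Next in order, Zfp790 had 74 and 16 reads, Zfp68 51 and 11, and Zfp280d 61 and 17, with ratios of 4.28 (2.47 to 7.88), 4.29 (2.21 to 9.13) and 3.32 (1.92 to 6.07). The first pair exceeded 4-fold only before the pseudocount, at log2 values of 1.94 and 1.88 with it.

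The lowest Zfp genes were as shallow. Zfp28 had 7 reads in the mutant IP against 50 in the mock IP (ratio 0.130, 0.0496 to 0.287), and was the only member at least 4-fold lower with the pseudocount. Zfp777 had 12 and 51 reads, a ratio of 0.218 (0.106 to 0.414), which was past 4-fold only before the pseudocount. The 5 lowest genes had 46 to 56 reads in the mock IP. Zfp282 had 17 and 46 reads and Zfp952 had 23 and 56, with ratios of 0.342 (0.184 to 0.608) and 0.380 (0.223 to 0.628). Zfp750, whose human counterpart drives epidermal differentiation, had 19 and 46 reads, a ratio of 0.382 (0.212 to 0.666). Zfp750 overlaps Tbcd in RefSeq, and the use of strand in counting is not given, so their reads may not be separate. The same limit holds for all 55 members that overlap another annotated gene, among them Zfp646, Zfp445, Zfp830 and Zfp575, named below.

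**Figure D1:**
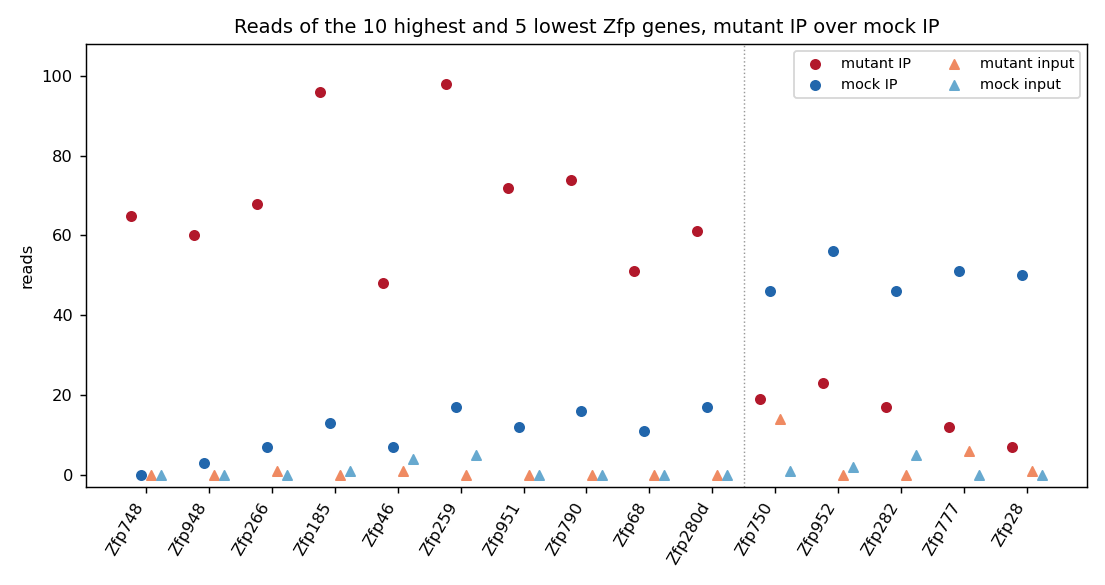
Reads (linear axis) in each of the 4 libraries for the 10 Zfp genes with the highest and the 5 with the lowest ratio of mutant IP to mock IP, separated by the dotted line; each point is 1 library. The 10 highest have 48 to 98 reads in the mutant IP and 0 to 17 in the mock IP, and all 10 have 5 or fewer reads in each input.

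The ratios spread less among Zfp genes with more reads. Of 73 Zfp genes with 50 or more but fewer than 100 IP reads, 5 were at least 4-fold higher and 1 lower, where the background was 6.55% and 1.45%, and their ratios had a standard deviation over genes of 1.10 on the log2 scale. Of 51 genes with 100 or more but fewer than 200, 2 were higher and 0 lower (background 2.66% and 0.133%), with a standard deviation of 0.71. Among 22 genes with 200 or more but fewer than 400, 0 passed 4-fold either way (background 0.365% and 0%), and the standard deviation was 0.47. Among the 17 with 400 reads or more, 0 passed (0.473% and 0%), and their log2 ratios ran from -0.49 to 1.16. The median exact interval spanned 2.83-fold from its low to its high end in the shallowest class and 1.45-fold in the deepest. The standard deviations of all symbols in the same 4 classes were 1.09, 0.76, 0.57 and 0.43, so the Zfp genes spread much as other genes of like depth.

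**Figure D2:**
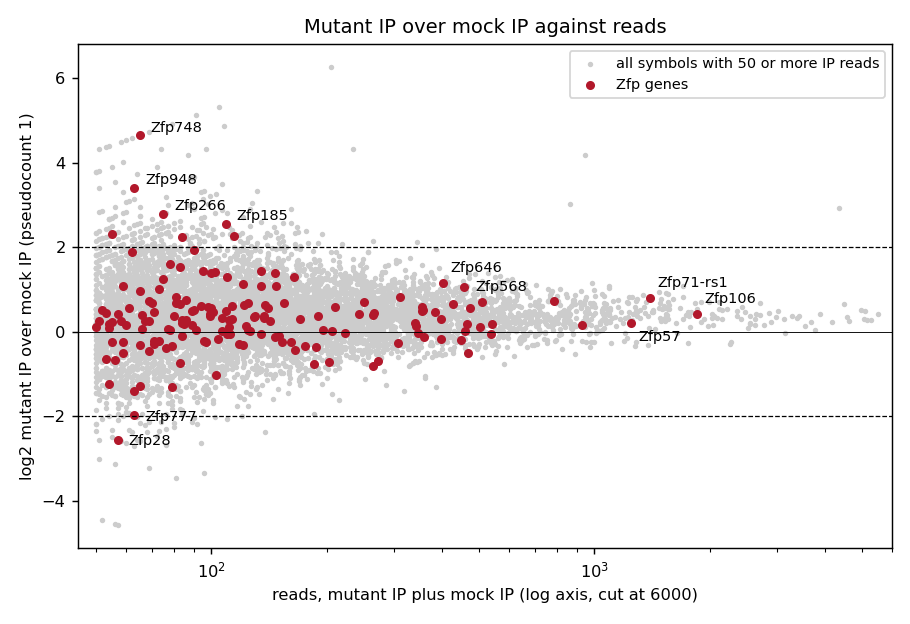
Log2 ratio of mutant IP to mock IP (pseudocount 1) against reads summed over both IPs (log axis, the most abundant symbols lie beyond its right end) for 163 Zfp genes in red and all symbols with 50 or more IP reads in grey; dashed lines mark 4-fold. The Zfp genes past 4-fold lie below 200 reads, and the 17 Zfp genes with 400 reads or more lie between -0.49 and 1.16.

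The members that drew most reads gave the firmest ratios. Zfp106, an RNA-binding protein needed by motor neurons and muscle in mice, had 1097 reads in the mutant IP against 754 in the mock IP (ratio 1.35, 1.23 to 1.48). Zfp937 had 505 and 282 reads, a ratio of 1.66 (1.43 to 1.93). The interval of Zfp106 included the 1.31 of the table without Lars2, and that of Zfp937 lay above it. Zfp609, a partner of the cohesin loader Nipbl, had 509 and 420 reads, a ratio of 1.12 (0.984 to 1.28). Zfp607 had 156 and 109 reads, a ratio of 1.33 (1.03 to 1.71). Zfp12 and Zfp316, neighbouring genes, were lower in the mutant IP, with 203 reads against 265 for Zfp12 (0.709, 0.588 to 0.855) and 100 against 164 for Zfp316 (0.565, 0.436 to 0.728). Among the 17 members with 400 reads or more, 2 were above 2-fold and were singled out after their values were seen. Of all 845 symbols with as many reads, 46 were at least 2-fold higher and 0 lower. The 2 members were Zfp568 and Zfp646, of which Zfp646 had 286 reads in the mutant IP against 117 in the mock IP (ratio 2.26, 1.82 to 2.83).

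Genes with known roles were taken from lists drawn up with earlier results of these data known. Of 6 KRAB repressors of retroelements or imprinted regions, 3 had enough reads. Of the 3, 0 passed 4-fold, where all symbols with at least 50 IP reads gave 3.45% higher and 0.594% lower. The role lists are short, so a count of 0 does not set them apart from that background. Zfp57, which keeps methylation at imprinted regions, had 695 reads in the mutant IP against 552 in the mock IP (ratio 1.17, 1.04 to 1.31); its transcript carries a noncoding RefSeq identifier. Zfp445, which acts on imprinted regions with Zfp57, had 220 and 134 reads, a ratio of 1.52 (1.22 to 1.90). Zfp568, which represses a placental Igf2 transcript in the mouse, had 318 and 140 reads, a ratio of 2.10 (1.72 to 2.58). Its interval lay above that of Zfp57. Zfp568 was also higher between the inputs, with 27 mutant reads against 15 mock reads, a ratio of 2.5 (1.28 to 5.06). Its log2 ratio of mutant to mock in IP over input was -0.13. In the inputs Zfp57 had 0 and 3 reads and Zfp445 had 0 and 4. The other three had too few reads. Zfp932 had 27 and 14, Zfp819 had 26 and 9, and Zfp809, which silences retroviruses through their primer binding site, had 0 and 10.

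Of 11 RNA-associated Zfp genes, 10 were listed and 7 had enough reads. Of the 7, 0 passed 4-fold (background 3.45% higher and 0.594% lower). Their median log2 ratio was 0.36, against 0.39 for all symbols. Zfp36 and Zfp36l1 encode proteins that bind AU-rich elements and recruit deadenylases. Zfp36 had 32 reads in the mutant IP against 21 in the mock IP (ratio 1.41, 0.789 to 2.57), and Zfp36l1 had 51 and 53, a ratio of 0.891 (0.595 to 1.33). Zfp598, the ubiquitin ligase that marks collided ribosomes, had 215 and 140 reads, a ratio of 1.42 (1.14 to 1.77). Zfp346, which binds double-stranded RNA, had 80 and 57, a ratio of 1.30 (0.914 to 1.86). Zfp385a had 75 in each IP, a ratio of 0.926 (0.663 to 1.29), and Zfp830, linked to splicing and early embryo survival, had 56 and 54, a ratio of 0.960 (0.649 to 1.42). With Zfp106 these 7 ranged from 0.891 to 1.42, and a 4-fold difference lay outside each of their intervals. Below the minimum, Zfp326 had 23 and 8 reads, a ratio of 2.66 (1.15 to 6.88), Zfp36l2 had 15 and 16 (0.868, 0.400 to 1.87) and Zfp622 had 23 and 19 (1.12, 0.584 to 2.18).

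Of 16 genes listed as regulators of transcription or chromatin, 11 had enough reads. Of the 11, 0 passed 4-fold (background 3.45% higher and 0.594% lower). Their median log2 ratio was 0.25, against 0.39 for all symbols. Zfp281, which with the NuRD complex restrains Nanog, had 178 reads in the mutant IP against 168 in the mock IP (ratio 0.981, 0.790 to 1.22). Zfp322a, a factor of embryonic stem cell identity, had 46 and 51, a ratio of 0.835 (0.548 to 1.27). Zfp217, a corepressor subunit, had 229 and 170, a ratio of 1.25 (1.02 to 1.53). Zfp462 had 186 and 157, a ratio of 1.10 (0.882 to 1.37). Zfp143, which binds promoters and chromatin loop anchors, had 47 and 38, a ratio of 1.15 (0.731 to 1.8). The highest of the list was Zfp335, needed by neural progenitors, with 80 and 45 reads and a ratio of 1.65 (1.13 to 2.43). The rest were Zfp148 at 1.19, Zfp219 at 1.38, Zfp292 at 1.44 and Zfp423 at 1.31, with Zfp609 at 1.12. The 5 others of the list were below the minimum and went both ways. Zfp296 had 0 reads in the mutant IP against 29 in the mock IP, at least 10.4-fold lower. Zfp384 had 33 and 15, a ratio of 2.04 (1.08 to 4.04), Zfp521 had 6 and 0, at least 1.85-fold higher, Zfp503 had 0 and 2, and Zfp703 had 1 in each. Outside the lists and below the minimum, and named after its values were seen, Zfp873 had 48 and 0, at least 14.8-fold higher.

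**Figure D3:**
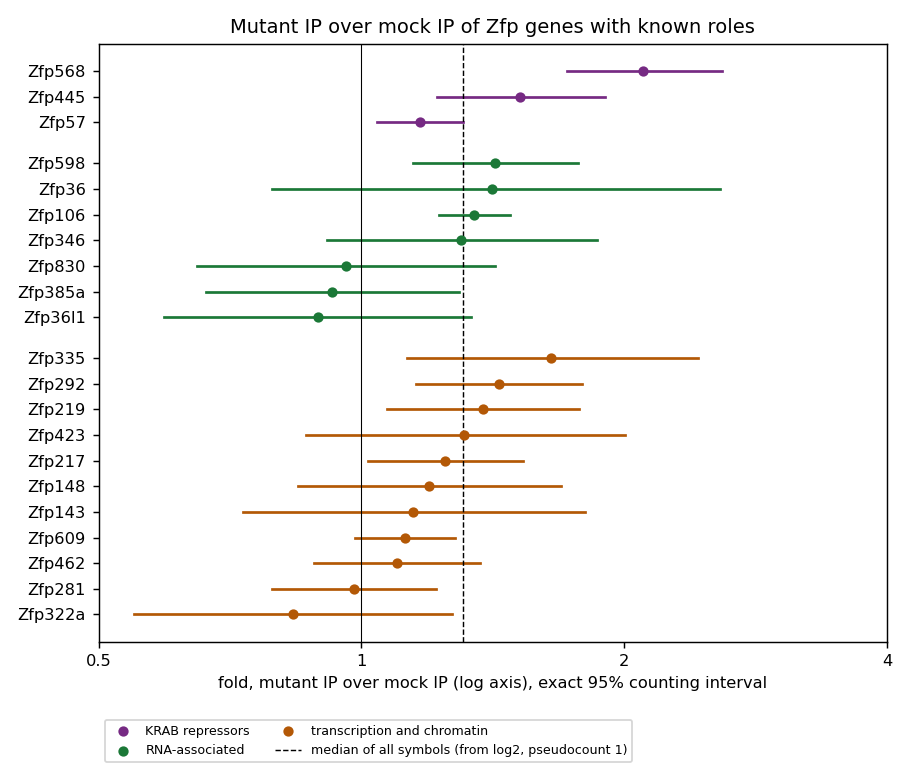
Ratio of mutant IP to mock IP (log axis) for the 21 Zfp genes with listed roles that had 50 or more IP reads; points are ratios of deposited values, bars exact 95% intervals for counting error, the solid line marks 1 and the dashed line the median of all symbols. Points run from 0.835 for Zfp322a to 2.10 for Zfp568.

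IP over input describes what the gel retained of these RNAs, with the tagged protein and without it. In the mutant, 114 of 163 Zfp genes were at least 4-fold higher in the IP than in the input and 0 lower, with a background of 77.1% and 0.332%. In the mock, 116 were higher and 0 lower, with a background of 76.2% and 0.428%. The Zfp genes had mutant and mock median log2 ratios of 3.31 and 3.04, and all symbols had 3.13 and 3.01. With genes at 0 input reads placed at their bound of 3 reads, the Zfp genes had a mutant median of 2.92 and a mock median of 3.0. The inputs and the IPs were prepared differently and the factors behind the deposited values are unexplained, so the level of these ratios rests on scaling: equal totals gave a mutant median of 1.36 and a mock median of 1.14.

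The Zfp genes with readable inputs stood lower in IP over input than all symbols so chosen, in mutant and mock alike. Of the 54 with at least 20 reads over both inputs, 18 were at least 4-fold higher in the mutant IP than in its input (33.3%) and 0 lower, with a background of 54.8% and 1.04%. In the mock 22 were higher (40.7%) and 0 lower, with a background of 56.4% and 1.26%. Their median log2 ratio was 0.95 in the mutant and 1.42 in the mock, against 2.16 and 2.22 for all 2301 symbols with as many reads. This difference was not tested. The 109 members with fewer input reads had medians of 3.76 and 3.50, against 3.56 and 3.33 for all symbols of that depth. At 100 input reads or more the 14 Zfp genes had medians of -0.03 and 0.03, against 0.59 and 0.86 for 409 symbols. The minimum on IP reads also removes genes that are deep in the inputs and poor in the IPs, for members and all symbols alike. Below it, 7 Zfp genes had at least 20 input reads, of which 3 lay below 0 in the mutant and all 7 in the mock. Choosing genes with few IP reads and many input reads favours low ratios. No share of all symbols below the minimum is given, so these counts are not read as a trait of Zfp genes. Zfp248, named after its values were seen, had 36 mutant IP reads against 124 mutant input reads, and 10 mock IP reads against 151 mock input reads.

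On the deposited scale, a set of Zfp genes was no richer in the IP than in the input. Zfp937, with 465 mutant and 350 mock input reads, gave 0.724 (0.637 to 0.823) in the mutant and 0.806 (0.686 to 0.945) in the mock. Zfp607, with 145 and 166 input reads, gave 0.717 (0.568 to 0.906) and 0.657 (0.511 to 0.841). Zfp316, the lowest in the mutant, had 100 IP reads against 187 input reads, a ratio of 0.357 (0.277 to 0.457), and 0.901 (0.725 to 1.12) in the mock. Its neighbour Zfp12, with 202 and 230 input reads, gave 0.670 (0.549 to 0.818) and 1.15 (0.962 to 1.38), and Zfp113 gave 0.637 (0.485 to 0.837) and 0.980 (0.735 to 1.31). Of these 5 genes, Zfp937 and Zfp607 had intervals wholly below 1 in both conditions. In all, 9 of 163 members lay below 0 on the log2 scale in the mutant and 10 in the mock. Among all 7236 symbols, 246 and 239 did. With at least 20 input reads it was 14.8% and 18.5% of the members, against 10.3% and 9.34% of all symbols. This difference was not tested. The 5 members below 0 in both conditions were Zfp937, Zfp607, Zfp874b, Zfp113 and Zfp316. The number of members below 0 followed the scaling: with equal totals it was 50 in the mutant, 59 in the mock and 37 in both. No share of all symbols is given with equal totals. In the mock, Zfp287 was the lowest, with 35 IP reads against 72 input reads (ratio 0.486, 0.315 to 0.738), where the mutant gave 1.05 (0.674 to 1.65).

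At the other end were Zfp genes with far more signal in the IP. Zfp106 had 1097 mutant IP reads against 72 input reads, a ratio of 10.2 (8.0 to 13.1), and 8.98 (7.16 to 11.4) in the mock. Zfp609, with 31 mutant and 19 mock input reads, gave 10.9 (7.62 to 16.3) in the mutant and 22.1 (14.0 to 37.1) in the mock. Zfp407, Zfp516 and Zfp652 gave 12.8 (7.18 to 25.1), 12.4 (7.09 to 23.5) and 12.1 (6.79 to 23.8) in the mutant, and 11.0 (6.36 to 20.6), 12.9 (7.86 to 22.5) and 15.4 (9.14 to 28.0) in the mock. Zfp57 had 695 mutant IP reads against 0 input reads, at least 154-fold higher, and 552 mock IP reads against 3 input reads. For each of these genes the mock, which lacks the tagged protein, also gave a ratio well above 4.

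The genes with listed roles were read the same way. In the mutant, 3 of 3 listed KRAB repressors, 6 of 7 RNA-associated genes and 11 of 11 regulators of transcription or chromatin were at least 4-fold higher in the IP than in the input, with a background of 77.1%. The same numbers were higher in the mock, with a background of 76.2%, and no difference from the background was tested. The exception was Zfp830, with 56 IP reads against 30 input reads in the mutant (ratio 1.24, 0.785 to 2.01) and 54 against 36 in the mock (1.5, 0.966 to 2.35). Zfp598 gave 5.73 (3.78 to 9.06) in the mutant and 5.6 (3.64 to 8.95) in the mock. Zfp568 gave 7.85 (5.30 to 12.1) and 9.33 (5.47 to 17.1), and Zfp281 gave 13.2 (6.79 to 29.3) and 21.0 (10.4 to 49.4). For these 3 genes the mutant and mock intervals overlapped.

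**Figure D4:**
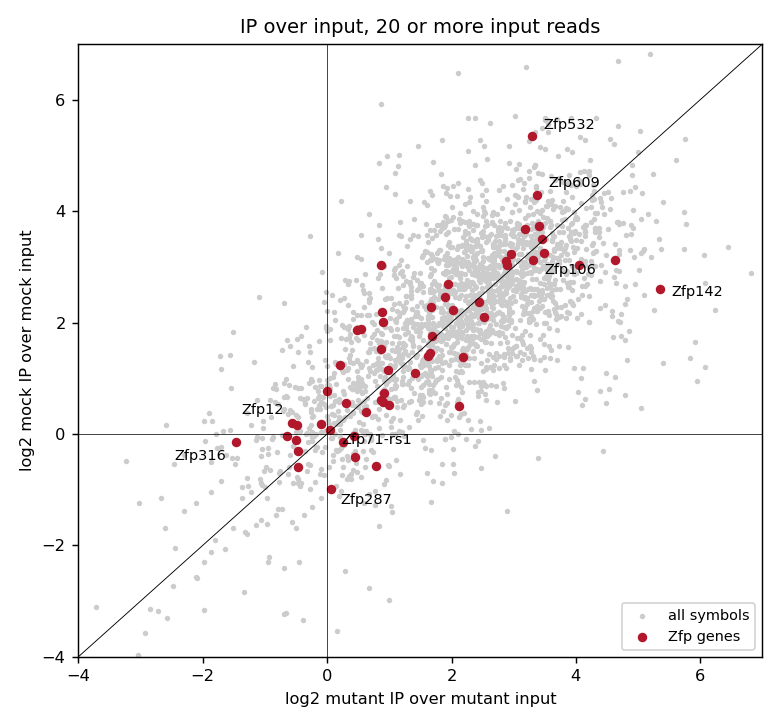
Log2 ratio of mutant IP to mutant input (horizontal) and of mock IP to mock input (vertical), pseudocount 1, for the 54 Zfp genes with 20 or more input reads in red and all symbols with as many in grey; axes run from -4 to 7 and points outside are not drawn. Many Zfp genes lie near 0 on both axes, with medians of 0.95 and 1.42 against 2.16 and 2.22 for all symbols.

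Between the inputs, 8 of 163 Zfp genes were at least 4-fold higher in the mutant and 8 lower, with a background of 8.26% and 3.9%, and 35 members had no input read. Fewer cells of a type and less RNA per cell cannot be told apart in these bulk libraries. Among the 54 with at least 20 input reads, 2 were higher and 1 lower, with a background of 6.21% and 1.61%. Zfp276 had 31 reads in the mutant input and 4 in the mock input, a ratio of 10.8 (3.81 to 42.0), and it overlaps Fanca and Vps9d1. Zfp532, a member of a chromatin complex with Zfp592 and Zfp687 known from human cells, had 17 and 4 reads, a ratio of 5.90 (1.93 to 24.1). Zfp142 had 0 and 25 reads, at least 6-fold lower. Next came Zfp422, with 31 and 10 reads (4.31, 2.06 to 9.85), Zfp1, with 7 and 44 (0.221, 0.0840 to 0.494), and Zfp871, with 7 and 19 (0.512, 0.182 to 1.27). Zfp937, with 465 and 350 reads, gave 1.85 (1.60 to 2.13), against 1.5 for the table without Lars2.

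The specific enrichment divides IP over input in the mutant by IP over input in the mock. It was at least 4-fold higher for 16 Zfp genes and lower for 12, with a background of 10.6% and 6.98%, and its median was 0.16 for the Zfp genes and 0.10 for all symbols on the log2 scale. In each of these 28 genes the shallower input had 4 reads or fewer. Among the 45 members with at least 10 reads in each library, 0 passed 4-fold either way, with a background of 1.08% and 1.99%, and the values ran from -1.34 to 1.36. The highest were Zfp459 at 1.36, Zfp287 at 1.05 and Zfp26 at 0.87. Zfp26 had 110 reads in the mutant IP against 37 in the mock IP, and 53 and 50 in the inputs. The lowest were Zfp575 at -1.34, Zfp704 and Zfp316 at -1.32. Zfp575 had 146 mutant IP reads against 162 mock IP reads, and 66 mutant input reads against 42 mock input reads. No counting interval is given for this ratio of ratios.

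Zfp genes often lie in clusters. By the RefSeq annotation of GRCm38, used only for names and neighbours, 68 members had another Zfp gene as the next protein-coding gene on 1 side or both, 94 had none, and 1 was not placed. The first group had a median log2 ratio of mutant IP to mock IP of 0.27 with 3 genes at least 4-fold higher and 1 lower. The second had 0.30 with 4 higher and 0 lower. The higher shares, 4.41% and 4.26%, lay near the 3.45% of all symbols, of which 0.594% were lower. Paralogs can share reads, and how reads with several alignments were counted is not given, so values of clustered genes are uncertain. Small RNA genes were annotated within 6 members, among them Zfp185 with Mir2137, Zfp687 with Mir7013, Zfp84 with Mir1964 and Zfp518a with Mir8092. Between the IPs, Zfp687 had 205 mutant reads against 106 mock reads (ratio 1.79, 1.41 to 2.29), Zfp84 had 39 against 27 (1.34, 0.798 to 2.27) and Zfp518a had 63 against 48 (1.22, 0.822 to 1.81). The others were Zfp462, given above, and Zfp655, with 61 against 37 (1.53, 0.998 to 2.36). Of the 6, Zfp185 alone was at least 4-fold higher and 0 were lower, against 3.45% and 0.594% of all symbols. A count of 1 in so few genes does not set them apart from that background. The similarly named Zfp955a and Zfp955b had 51 and 42 reads in the mutant IP and 22 and 17 in the mock IP, with ratios of 2.15 (1.28 to 3.72) and 2.29 (1.27 to 4.29).

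Partners of KRAB proteins and other zinc finger families were set beside the Zfp genes between the IPs. Of 17 corepressor and DNA methylation genes, 15 had at least 50 IP reads, and 0 passed 4-fold either way, against 3.45% higher and 0.594% lower of all symbols, with a median log2 ratio of 0.30. Trim28, the corepressor that KRAB domains bind, had 702 reads in the mutant IP against 471 in the mock IP (ratio 1.38, 1.23 to 1.55). Of 12 Zc3h genes 2 were at least 4-fold higher (16.7%), of 25 Zbtb genes 2 (8%) and of 79 ribosomal protein genes 3 (3.80%), while 0 of 17 Zscan and Zkscan genes and 0 of 12 Klf genes were, and 0 were 4-fold lower in each family. The Zc3h and Zbtb shares were above the 3.45% of all symbols, on 2 genes each. Medians were 0.74 for the Zscan and Zkscan genes, 0.64 for Zbtb, 0.48 for Zc3h, 0.44 for ribosomal protein and 0.32 for Klf genes, against 0.28 for the Zfp genes and 0.39 for all symbols. The order differed for specific enrichment. Its log2 medians were -0.04 for the Zscan and Zkscan genes, 0.10 for Zbtb and 0.22 for Zc3h. They were 0.24 for ribosomal protein and -0.31 for Klf genes, against 0.16 for the Zfp genes and 0.10 for all symbols. These differences were not tested.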

How the data were processed

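RNA of 4 libraries (mutant IP, mock IP, mutant input, mock input) was analysed. The submitters' processing notes name Bowtie and the mm9 build. The Bowtie version, counting tool, strand setting and handling of reads with several alignments were not stated in the labels or headers. The deposited unit is a signal: 100% of values were whole reads, within 0.02 reads, divided by 1 factor per library. No label or header explains these factors. Values were used as deposited.

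The members and gene lists were chosen with earlier results of these data known. Each Zfp symbol had 1 transcript. All 163 members matched RefSeq (GRCm38) by symbol or synonym, 5 under another symbol. Genes named were the 10 highest and 5 lowest between the IPs, those with the highest mean (1 of these 8 is not reported here), extremes of IP over input, of specific enrichment and between inputs at set depths, the genes of the role lists, and those beside the minimum; Zfp646, Zfp874b, Zfp873, Zfp248 and the genes holding small RNAs or of like name were named after their values were seen. Intervals are exact conditional binomial (ratios) or Clopper-Pearson (shares) at 95%; PCR copies are not independent molecules. With 1 library per group no count test could be run on the recovered reads. Zinc fingers and KRAB domains were to be counted in protein sequences, which were not used here. Python 3.11.15, pandas 2.3.3 and scipy 1.17.1 were used. The calls and intervals were tried on simulated reads that held counting error alone, so this does not bear on variation between libraries or on PCR copies. Alternatives covered scaling, pseudocount, read minimum and transcripts.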

Additional observations from a re-analysis of the deposited data

Results flagged for a closer look

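On the deposited scale, Zfp459 lay above 1 in IP over input in the mutant and below 1 in the mock, each beyond counting error. It had 77 mutant IP reads and 29 mutant input reads, a ratio of 1.77 (1.14 to 2.81), and 45 mock IP reads and 68 mock input reads, a ratio of 0.662 (0.444 to 0.979), which makes its log2 specific enrichment 1.36. The opposite directions hold on that scale only among those tried. With equal totals its log2 IP over input was -1.42 in the mutant and -3.16 in the mock, without Lars2 -0.96 and -2.53, and centred on the median of all symbols -2.34 and -3.58. The mutant stayed the higher of the 2, with a specific enrichment of 1.26 to 1.74 on these scales, which were tried for this gene after seeing the data. With 1 library per group the difference was not tested. Zfp459 overlaps Zfp874a in RefSeq.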

How the results depend on the processing

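The 7 of 163 Zfp genes at least 4-fold higher between the IPs became 4 after centring on the median ratio. They became 4 with equal totals without Lars2 and 2 with a pseudocount of 5. Changing the minimum changed the set of members: 2 of 90 passed with at least 100 IP reads and 18 of 256 with at least 20. The 1 lower gene became 2 after centring, 2 with equal totals without Lars2, 2 with a pseudocount of 0.5 and 0 with a pseudocount of 5. With at least 100 IP reads 0 of 90 were lower, and with at least 20, 8 of 256. Shares of all symbols are not given under these alternatives. The log2 median between the IPs, 0.28, was -0.11 centred, 0.10 with equal totals and -0.091 without Lars2. The median of mutant IP over input, 3.31, was 0.18 centred, 1.36 with equal totals, 1.79 without Lars2, 3.58 and 1.89 with pseudocounts of 0.5 and 5, and 0.95 with at least 20 input reads. That of mock IP over input, 3.04, was 0.032, 1.14, 1.62, 3.39, 1.73 and 1.42 under the same settings in that order. The median between inputs, 0.08, was -0.080 centred, 0.28 with genes at 0 at their bound and 0.47 with at least 20 input reads. The median of specific enrichment, 0.16, was -0.14 with at least 20 input reads. Centring subtracts the median of all symbols, which was 0.39 between the IPs, 3.13 and 3.01 over input in mutant and mock, 0.16 between inputs and 0.10 for specific enrichment. Other causes were not tested. Placing genes at 0 at their bound and requiring 20 input reads were chosen after seeing the data. Summing over transcripts moved nothing, as each Zfp symbol had 1 transcript.

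No paired analysis was possible because each group is 1 library and the labels give no replicate numbers, and leaving out a replicate would leave a group empty. Shallow inputs limit every ratio over input: 57 members had 0 mutant input reads and 55 had 0 mock input reads.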

Other observations

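Outside the 163 genes, the table of noncoding RNAs listed Zfp286os, an opposite-strand transcript of Zfp286, with 36 mutant IP reads against 21 mock IP reads (ratio 1.59, 0.902 to 2.86) and 16 mutant input reads against 36 mock input reads. Zfp85os had 3 reads, all in the mutant input, and Zfp813-ps had 0 in each library. The use of strand is not stated, so reads of an opposite-strand transcript and its partner gene cannot be told apart.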
